A study of Homo sapiens with 5 samples.

Results

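The mRNA levels of 10 genes that join broken DNA ends or act in the 53BP1 pathway were examined in RPE1 cells treated with doxorubicin. The genes were taken by symbol, as a list of known members of these pathways, from the 26485 genes of the count table, and all 10 were found in it and passed the filter on low counts. RPE1 is an established, telomerase-immortalized line of human retinal pigment epithelial cells, labelled wild type and grown in serum-containing DMEM. The control cells (2 libraries) received DMSO for 18 h. The treated cells received doxorubicin for 18 h, at 0.2 μM (2 libraries) or at 0.34 μM (1 library). The comparison asked which genes respond to doxorubicin, an intercalator and topoisomerase II poison that breaks DNA, and for it the 3 doxorubicin libraries were joined into 1 group. The methods call the libraries biological replicates without saying that they came from separate cultures, so the p-values measure only the spread between these libraries, and that spread between them may be technical in part.

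Non-homologous end joining rejoins both ends of a DNA break without a template and works through most of the cell cycle. The Ku70 and Ku80 proteins (genes XRCC6 and XRCC5) form a ring that slides onto each end and recruits the kinase DNA-PKcs (PRKDC). The nuclease Artemis (DCLRE1C) trims ends that cannot be joined directly, XRCC4 and XLF (NHEJ1) align them, and DNA ligase IV (LIG4) seals them. The chromatin reader 53BP1 (TP53BP1) gathers around breaks and, through RIF1 and the shieldin subunit REV7 (MAD2L2), protects the ends from being cut back to single strands, a step called resection that leads to homologous recombination. Thus the 53BP1 pathway and the BRCA1 protein act in opposite directions on the same ends.

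The libraries held 23773061 to 36725345 counts on genes, and levels are given in TMM-normalized CPM. In edgeR's quasi-likelihood test, 571 of 14187 genes passed an adjusted p of 0.01, the threshold used throughout, or 4.02% of the genes. The treatment itself was visible in the libraries, since the p53 target CDKN1A, which had 276 ± 26.1 CPM in the controls (SD, n = 2), rose to 2900 ± 500.4 in doxorubicin (SD, n = 3). The p53 inhibitor MDM2 rose from 125.1 ± 3.54 to 571 ± 125.5. The mitotic kinase PLK1 fell from 199 ± 12.7 to 4.29 ± 0.408. The markers MITF (29.1 to 56.7 CPM) and OTX2 (23.5 to 29.4 CPM) of the retinal pigment epithelium were detected. The visual cycle gene RPE65 had 3 to 8 counts a library, and TTR, RLBP1 and TYR had 0 to 5. BEST1 (0.548 to 3.91 CPM) and PMEL (0.196 to 1.33 CPM), also of this epithelium, were low and were higher in each doxorubicin library. Of the markers of other cell types, the endothelial PECAM1, the epithelial EPCAM and the hepatocyte gene ALB stayed at or below 0.457 CPM, and the leukocyte gene PTPRC lay between 0.191 and 2.2 CPM, higher in each doxorubicin library. The control libraries stood apart in genes of DNA replication. A list of 20 G1/S and replication genes summed to 1268 CPM in DMSO replicate 1 and 2373 in replicate 2, against 535.7 to 809.7 in doxorubicin. These sums include PCNA, the 1 gene of the list with a higher fitted level. It had 86.0 and 166 CPM in DMSO and 185, 344 and 230 in doxorubicin, a large part of each doxorubicin sum. A list of 15 G2/M genes summed to 2717 and 2797 against 199.5 to 302.1. The part of these differences in the results for the 10 genes was not tested. In bulk libraries, fewer cells that make a transcript and less of it per cell cannot be told apart.

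All 10 genes had a fitted level below the control after doxorubicin, although LIG4, nearest to 0, turned to 0.0237 with upper quartile normalization. None passed the threshold of 0.01 in edgeR, and 7 had an unadjusted p under 0.05. Between 4169 and 4416 of all 14187 genes tested had an unadjusted p under 0.05 in edgeR. The 10 genes were sorted by whether their libraries overlapped between the treatments. The levels of 7 genes, those of Ku, DNA-PKcs, Artemis, XRCC4, RIF1 and REV7, were lower in each of the 3 doxorubicin libraries than in both controls, by between 0.46 and 1.17 on the log2 scale. The levels of LIG4, NHEJ1 and TP53BP1 overlapped between the treatments and differed by at most 0.17. The libraries did not overlap in the lower direction in 23.4% of all genes tested, in the higher direction in 24.3%, and in either in 47.7%. The median log2 fold change of the 10 genes was -0.79, and that of all genes tested was 0.013.

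**Figure D1:**
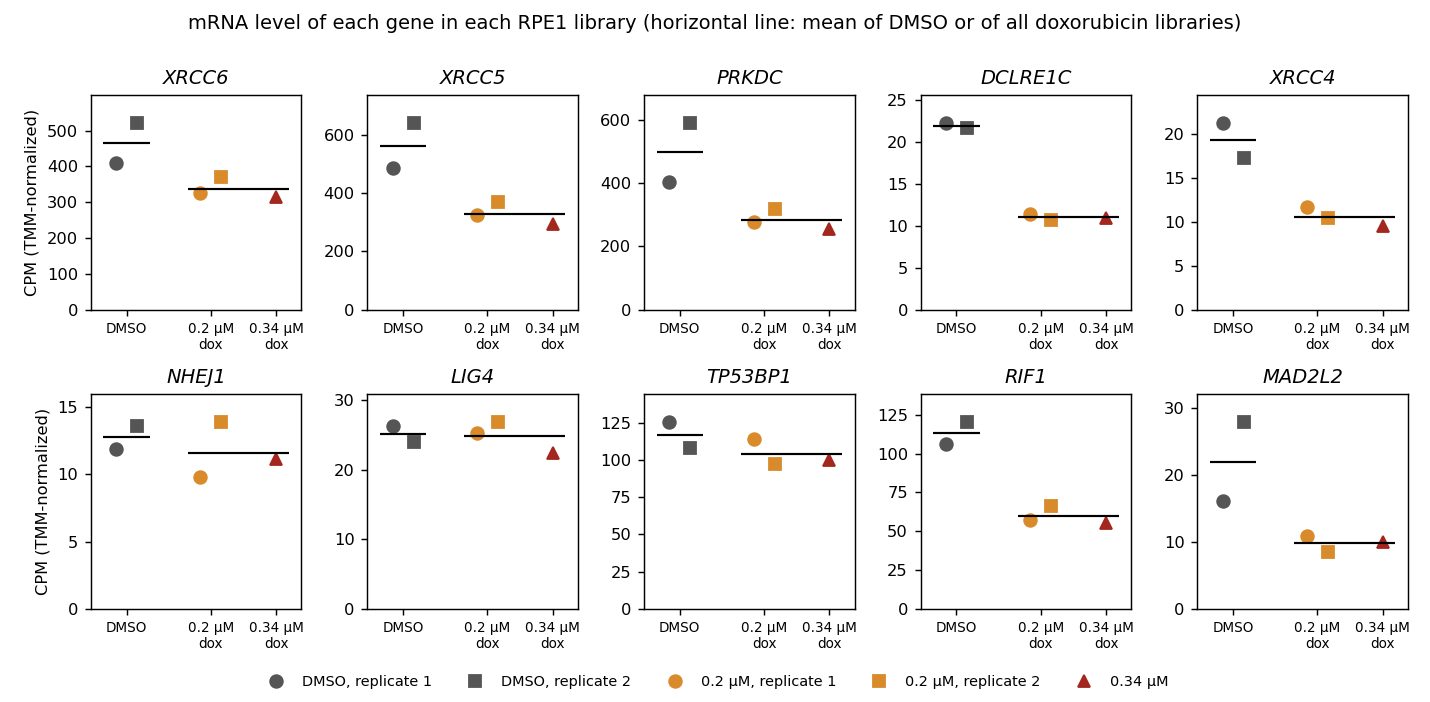
Level of each of the 10 genes in each library in TMM-normalized CPM on linear axes that start at 0. Grey symbols are DMSO, orange 0.2 μM and red 0.34 μM doxorubicin, circles and squares are replicates 1 and 2, and lines are the means of the 2 DMSO and of the 3 doxorubicin libraries. The doxorubicin libraries lie below both controls in 7 panels and overlap with them in NHEJ1, LIG4 and TP53BP1.

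The genes that recognize the DNA end were the most abundant of the 10. XRCC6 (Ku70; chromosome 22 of GRCh38.p14, 41621295 to 41664041) had 410 and 521 CPM in DMSO, 327 and 370 at 0.2 μM and 316 at 0.34 μM. The controls were higher than each treated library, and the gap was narrow beside the spread of the control pair. Its log2 fold change was -0.46 (SE 0.17), with an adjusted p of 0.123 in edgeR. XRCC5 (Ku80; chromosome 2, 216109348 to 216206293) had 484 and 639 CPM in DMSO, 325 and 369 at 0.2 μM and 292 at 0.34 μM. Its groups did not overlap either, with a log2 fold change of -0.77 (SE 0.19, adjusted p = 0.0416 in edgeR). PRKDC, the kinase that Ku brings to the end (chromosome 8, 47773111 to 47960136), had 404 and 589 CPM in DMSO, 277 and 318 at 0.2 μM and 254 at 0.34 μM. Its groups did not overlap, and DMSO replicate 2 was the highest library, as it was for both Ku genes. PRKDC had a log2 fold change of -0.81 (SE 0.21, adjusted p = 0.0472 in edgeR). Without DMSO replicate 2 the fold changes came to -0.30 for XRCC6, -0.58 for XRCC5 and -0.53 for PRKDC, with adjusted p-values of 0.233, 0.0871 and 0.0975 in edgeR. XRCC6 has pseudogenes in the annotation, and the handling of reads that map to several places is not stated in the methods.

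Among the genes that trim, align and seal the ends, 2 were near 50% of the control and 2 were close to it. DCLRE1C, the Artemis nuclease (chromosome 10, 14897359 to 14954432), had 22.2 and 21.6 CPM in DMSO, 11.4 and 10.7 at 0.2 μM and 10.9 at 0.34 μM. The libraries of each treatment lay close together and far from the other treatment. The log2 fold change was -0.99 (SE 0.16), or 50.2% of the control, and the adjusted p of 0.0118 in edgeR lay just outside the threshold. XRCC4, the scaffold of the ligase (chromosome 5, 83077547 to 83374473), had 21.3 and 17.3 CPM in DMSO, 11.7 and 10.4 at 0.2 μM and 9.53 at 0.34 μM. Its groups were also apart, with DMSO replicate 1 the higher control. It came to a log2 fold change of -0.87 (SE 0.19, adjusted p = 0.0317 in edgeR).

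The ligase and the second alignment factor showed no such gap. LIG4, the ligase that XRCC4 holds (chromosome 13, 108207442 to 108218349), had 26.3 and 24.0 CPM in DMSO, 25.3 and 26.8 at 0.2 μM and 22.4 at 0.34 μM. The treated libraries lay on both sides of the controls. The log2 fold change of -0.020 (SE 0.16, adjusted p = 0.95 in edgeR) had a 95% interval from -0.41 to 0.37, so that a change of the size seen for XRCC4 was outside the interval. NHEJ1, the XLF protein (chromosome 2, 219069357 to 219160815), had 11.9 and 13.6 CPM in DMSO, 9.82 and 13.9 at 0.2 μM and 11.2 at 0.34 μM. The lowest and the highest library were both of 0.2 μM. Its log2 fold change was -0.14 (SE 0.22, adjusted p = 0.722 in edgeR), with an interval from -0.66 to 0.39.

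In the 53BP1 pathway the transcript of the break's reader overlapped with the control, and the transcripts of RIF1 and MAD2L2, whose proteins act after it, were at 52.6% and 44.5% of the control without passing the threshold. TP53BP1 (chromosome 15, 43403061 to 43510640) had 126 and 108 CPM in DMSO, 114 and 97.8 at 0.2 μM and 101 at 0.34 μM. The second control lay below the first treated library, and the log2 fold change was -0.17 (SE 0.15, adjusted p = 0.504 in edgeR), with a 95% interval from -0.52 to 0.19. RIF1, the effector that binds phosphorylated 53BP1 (chromosome 2, 151409902 to 151534435), had 106 and 120 CPM in DMSO, 57.1 and 66.3 at 0.2 μM and 55.4 at 0.34 μM. No treated library came near the controls. On the log2 scale RIF1 stood at -0.93 (SE 0.15), or 52.6% of the control, with an adjusted p of 0.0113 in edgeR, just outside the threshold. MAD2L2 (chromosome 1, 11674480 to 11691830) encodes REV7, which also serves the translesion polymerase zeta, and had 16.1 and 27.9 CPM in DMSO, 10.9 and 8.44 at 0.2 μM and 10.0 at 0.34 μM. The groups did not overlap, but the control pair differed by 0.79 on the log2 scale, more than for any other of the 10 genes. The log2 fold change of -1.17 (SE 0.27, adjusted p = 0.0355 in edgeR) was the lowest of the 10. Without DMSO replicate 2 it was -0.73, with an adjusted p of 0.1 in edgeR. The spans of 8 of the 10 genes overlap another annotated gene or pseudogene, among them RIF1 with NEB, TP53BP1 with TUBGCP4, DCLRE1C with SUV39H2 and MAD2L2 with DRAXIN. Since the strand setting of the counting is not given, reads of the overlapping parts cannot be told apart. LIG4 and XRCC6 overlap no other annotated gene.

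**Figure D2:**
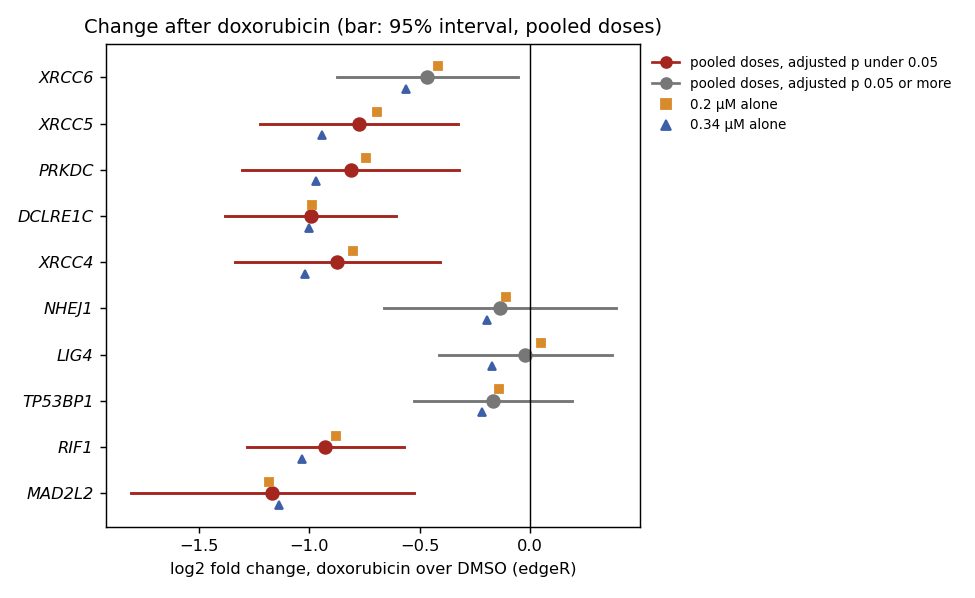
Log2 fold change of each gene, doxorubicin over DMSO, from edgeR. Circles are the pooled doses with 95% intervals (red where the adjusted p was under 0.05), squares 0.2 μM alone and triangles 0.34 μM alone against the same DMSO libraries. The 6 red genes run from -0.77 for XRCC5 to -1.17 for MAD2L2, and the intervals of NHEJ1, LIG4 and TP53BP1 include 0.

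How many of the genes were called depended on the test. At 0.01, edgeR called 0 of 10 (background 4.02% of all genes, with 2.73% lower and 1.29% higher), and limma voom also called 0. DESeq2 called 6 of 10 at 0.01, all lower, against 14.9% of all genes, with 8.18% lower and 6.72% higher. These 6 were XRCC5, PRKDC, DCLRE1C, XRCC4, RIF1 and MAD2L2, with adjusted p-values in DESeq2 from 3.02e-06 for DCLRE1C to 0.00349 for PRKDC. The 6 were also those under 0.05 in edgeR, where 13.6% of all genes passed that threshold, 7.48% lower and 6.1% higher. The count at 0.05 in edgeR fell with each library left out. It was 5 without DMSO replicate 1, 3 without DMSO replicate 2, 0 without replicate 1 and 2 without replicate 2 of the lower dose, and 0 when the library of the higher dose was left out. Calls over all genes at 0.01 also fell, from 571 to 207, 183 and 178 without each doxorubicin library in turn. The share of all genes under 0.05 in the fits with a library left out is not given here. The counts of the 10 genes at 0.05 in those fits therefore have no background beside them. The 7 genes whose libraries did not overlap kept a negative log2 fold change in each of the 5 fits with a library left out. That sign follows from how the 7 were sorted, since each treated library lay below both controls, and it is no further support. The fold changes of RIF1 ranged from -1.02 to -0.85 and those of DCLRE1C from -1.03 to -0.97, whereas those of MAD2L2 ranged from -1.52 to -0.73.

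The 2 doses were compared in a fit of 3 conditions, in which the lone 0.34 μM library is assumed to vary like the others. Over all genes, that library differed less from replicate 1 of 0.2 μM (chi-square of 9.01 per degree of freedom) than the replicates of 0.2 μM differed from each other (75.3). No gene of the 10 passed the test of 0.34 μM against 0.2 μM. The 3 tools edgeR, DESeq2 and limma voom each called 0 of 10, and 0 had an unadjusted p under 0.05. The background in edgeR was 0% of 14187 genes, of which 22 had an unadjusted p under 0.05. That is far fewer than evenly spread p-values would give, so the absence of calls cannot show that the doses are alike. The fitted level was lower at 0.34 μM in 9 of the 10 genes. The share of all genes with that direction is not given here, so no dose trend is read from this count. The lowest difference was that of XRCC5, with -0.25 on the log2 scale and a 95% interval from -0.98 to 0.48, and MAD2L2 was the exception with 0.049 (-0.96 to 1.05). Differences of this size between the doses were not detectable with 1 library of the higher dose. Against the same controls, RIF1 had a log2 fold change of -0.88 (SE 0.21) at 0.2 μM and -1.03 (SE 0.27) at 0.34 μM, and XRCC5 had -0.69 (SE 0.25) and -0.94 (SE 0.32).

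Levels were compared between genes per kilobase of exon (RPKM from the summed exon length of the GENCODE annotation). In DMSO, the order began with XRCC6 at 144 ± 24.3 RPKM (SD, n = 2), XRCC5 at 103 ± 20.1 and PRKDC at 17.1 ± 4.50. XRCC5 stood below XRCC6 in both DMSO libraries at this length (ratios of 0.703 and 0.727) and about level with it per coding length (0.978 and 1.01). Both Ku genes stood well above PRKDC. TP53BP1 followed at 9.01 ± 0.956, XRCC4 at 7.21 ± 1.05, RIF1 at 6.24 ± 0.55, MAD2L2 at 4.06 ± 1.54 and LIG4 at 3.53 ± 0.233. In this middle part XRCC4 and RIF1 changed places between the DMSO libraries, as did MAD2L2 and LIG4, and the other neighbours kept their order. DCLRE1C (1.43 ± 0.0286) and NHEJ1 (1.22 ± 0.117) came last. The first 3 places held with every length tried, and the others did not. MAD2L2 had 20.9 RPKM in DMSO per length of the canonical transcript, which placed it 4th, and with coding lengths DCLRE1C was last at 9.12 RPKM and NHEJ1 stood at 12.1.

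Ratios of partners within a library do not depend on its depth. Ku80 and Ku70 act as a pair, and the ratio of XRCC5 to XRCC6 per length was 0.703 and 0.727 in DMSO, 0.589 and 0.593 at 0.2 μM and 0.549 at 0.34 μM. LIG4 and XRCC4 also act as a complex, and their ratio was 0.464 and 0.519 in DMSO, 0.812 and 0.964 at 0.2 μM and 0.882 at 0.34 μM. The first ratio was lower and the second higher in all treated libraries. The ratio of RIF1 to TP53BP1 was 0.604 and 0.795 in DMSO, against 0.356 and 0.484 at 0.2 μM and 0.394 at 0.34 μM. The ratio of BRCA1, which promotes resection, to TP53BP1 was 0.381 and 0.596 in DMSO, 0.086 and 0.127 at 0.2 μM and 0.0961 at 0.34 μM. None of these ratios overlapped between the treatments. Of all single genes tested, 47.7% did not overlap, counting both directions, and the share among gene pairs is not given here. Apart from the Ku ratio, each ratio sets a gene whose treated libraries were all lower beside 1 whose libraries overlapped. Those ratios restate the levels of these genes. The gene length used sets the level of a ratio and cannot change whether its groups overlap. The ratios are a description, with no test.

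**Figure D3:**
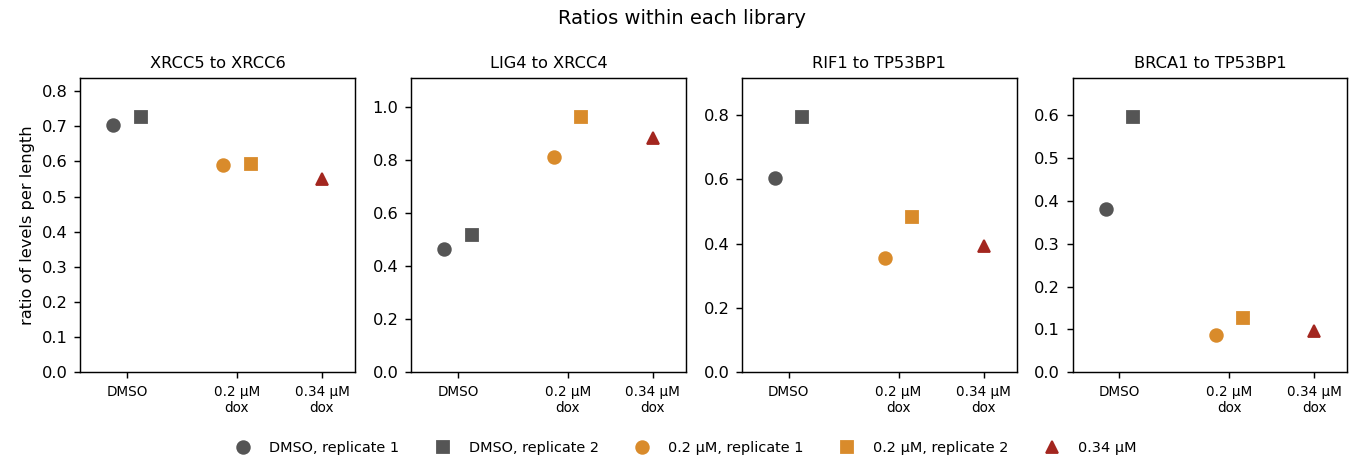
Ratio of the levels per exon length of 2 genes within each library, on linear axes that start at 0, with the symbols as in the plot of levels. XRCC5 to XRCC6, RIF1 to TP53BP1 and BRCA1 to TP53BP1 are lower in all doxorubicin libraries and LIG4 to XRCC4 is higher.

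The promoters of these genes are shown for the 4 members with a single start site in RefSeq. In 3 of them (XRCC6, XRCC4 and RIF1) each treated library lay below both controls, and in 1 (TP53BP1) the libraries overlapped. Each run gives the 250 bases before the start on GRCh38.p14, 5′ to 3′ in the direction of the gene, and capitals mark the motifs searched on both strands (the CCAAT box, the cell cycle homology region, the E2F sites and the GC box, or their reverse complements).
XRCC6 (chr22:41621045-41621294, plus strand): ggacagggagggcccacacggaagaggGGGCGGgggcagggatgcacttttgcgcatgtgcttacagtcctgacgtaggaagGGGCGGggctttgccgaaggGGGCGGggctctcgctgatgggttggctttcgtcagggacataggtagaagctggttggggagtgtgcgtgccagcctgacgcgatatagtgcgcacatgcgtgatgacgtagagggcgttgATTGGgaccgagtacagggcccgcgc
XRCC4 (chr5:83077297-83077546, plus strand): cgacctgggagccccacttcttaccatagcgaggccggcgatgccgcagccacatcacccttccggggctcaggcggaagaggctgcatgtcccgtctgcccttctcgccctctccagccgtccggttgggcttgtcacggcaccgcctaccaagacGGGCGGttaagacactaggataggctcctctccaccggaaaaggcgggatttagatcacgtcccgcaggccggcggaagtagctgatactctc
RIF1 (chr2:151409652-151409901, plus strand): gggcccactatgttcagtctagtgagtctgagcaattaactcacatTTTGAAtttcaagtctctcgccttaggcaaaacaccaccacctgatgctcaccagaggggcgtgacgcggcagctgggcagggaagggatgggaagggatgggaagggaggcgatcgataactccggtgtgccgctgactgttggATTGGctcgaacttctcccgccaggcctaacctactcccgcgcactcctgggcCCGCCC
TP53BP1 (chr15:43510641-43510890, minus strand): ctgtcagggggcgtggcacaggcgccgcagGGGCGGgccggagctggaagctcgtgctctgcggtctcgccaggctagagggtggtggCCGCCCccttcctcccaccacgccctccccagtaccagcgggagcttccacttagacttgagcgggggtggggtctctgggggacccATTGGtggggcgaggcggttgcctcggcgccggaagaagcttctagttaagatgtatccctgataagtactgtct

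Windows from 250 bases before to 50 after the start were listed for 8 of the 10 genes, with 15 start sites, and not for XRCC5 and PRKDC. GGGCGG, the core of the GC box, was in a window of all 8 genes (12 of 15 windows) and in 45% of the 35116 windows of all genes. CCAAT, the core of the NF-Y box, was in a window of 7 of the 8 genes (9 of 15 windows) and in 34.6% of all windows, and NHEJ1 was the gene without it. TP53BP1 and RIF1 both held it on the reverse strand, 75 and 59 bases before the start. TTTGAA, the letters of the cell cycle homology region found in many G2/M promoters, was in the window of RIF1 alone, 204 bases before the start, and in 15.2% of all windows. The E2F letters TTTGGCGC were in the window of XRCC6 alone (0.652% of all windows), after the start and outside the run shown, and TTTCCCGC was in none of the 15 (1.63% of all windows). The percentages count windows, and the share of all genes with a match in any of their windows is not given here. Windows of a gene can overlap, and overlapping windows of LIG4 held the same GGGCGG, which was counted in each. These matches are a description of the letters in 8 genes.

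Other genes of break repair were examined in 4 lists from general knowledge, of which 43 genes were tested. Of these, 13 passed the threshold of 0.01 in edgeR, all lower, against 2.73% of all genes. In the list of accessory end joining factors, 7 of 8 genes were tested and none passed in edgeR or limma voom, and DESeq2 called 1. In edgeR, 2 of the 7 had an unadjusted p under 0.05. That is near the share over all genes, between 4169 and 4416 of 14187. The median log2 fold change of the list was 0.38, with 5 genes above and 2 below the control. The gap-filling polymerase POLL had 21.1 and 23.2 CPM in DMSO, 37.5 and 34.3 at 0.2 μM and 41.0 at 0.34 μM, with an adjusted p of 0.0282 in edgeR and 0.000711 in DESeq2. All 3 treated libraries of POLL were above both controls. The related polymerase POLM had a log2 fold change of 0.38 (SE 0.18, adjusted p = 0.2 in edgeR). PAXX, the third of the XRCC4-like proteins, had 8.05 and 19.5 CPM in the controls and 8.44 to 14.3 in doxorubicin, and its groups overlapped.

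In the list of 53BP1 inputs and effectors, 21 of 23 genes were tested and 5 fell past the threshold. Of these, 3 act before 53BP1 is bound at the break and 2 act beside or after it. H2AX, the histone variant whose phosphorylation marks breaks, had 158 and 228 CPM in DMSO, 35.1 and 33.3 at 0.2 μM and 30.1 at 0.34 μM. Its log2 fold change was -2.56 (SE 0.19, adjusted p = 0.000972 in edgeR). MDC1, the adaptor that reads the phosphorylated histone, had 93.9 ± 23.7 CPM in DMSO (SD, n = 2) and fell to 35.0 ± 1.31 (SD, n = 3). KMT5A, which places the first methyl group on the histone mark that 53BP1 reads, fell from 74.8 ± 4.97 to 32.5 ± 0.536, and PAXIP1 (PTIP), an effector beside RIF1, fell from 19.1 ± 1.31 to 8.47 ± 0.347. TRIP13, the ATPase that takes REV7 out of shieldin, fell from 51.3 ± 16.7 to 9.70 ± 2.17. The ubiquitin ligase RNF168 had a log2 fold change of -0.79 (SE 0.15, adjusted p = 0.0188 in edgeR) and did not pass. Shieldin itself was poorly measured. SHLD1 had 12 to 24 counts a library, SHLD2 has near-identical pseudogenes and a log2 fold change of -0.45 (SE 0.26, adjusted p = 0.294 in edgeR), and no symbol of SHLD3 was matched. TEN1 of the CST complex was listed at 0 in all libraries. Its span overlaps the annotated gene TEN1-CDK3, so reads lost in the counting and a lack of expression cannot be told apart.

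Genes of alternative end joining, which joins ends by short stretches of homology, and genes of resection had the lowest medians of the 4 repair lists. The G1/S and replication list and the G2/M list had medians of -2.34 and -3.66 on the same scale. Of 10 alternative end joining genes, 4 passed the threshold, all lower, with a list median of -1.10. POLQ, its signature polymerase, had 27.4 and 33.8 CPM in DMSO, 5.92 and 7.03 at 0.2 μM and 3.94 at 0.34 μM, a log2 fold change of -2.44 (SE 0.27, adjusted p = 0.00329 in edgeR). The break sensors PARP1 and PARP2 fell by 1.09 and 1.87 on the log2 scale and the resection starter RBBP8 (CtIP) fell by 1.29. LIG3, the ligase of this route, had a log2 fold change of -0.28 (SE 0.18, adjusted p = 0.349 in edgeR). Of the 5 resection genes that oppose 53BP1, 4 passed the threshold and the list median was -2.41. BRCA1 had 61.3 ± 12.8 CPM in DMSO (SD, n = 2) and fell to 11.6 ± 1.68 in doxorubicin (SD, n = 3). Its partner BARD1 fell by 2.41 on the log2 scale, the nuclease EXO1 fell by 2.80 and the helicase BLM fell by 2.73. The count of 13 over the 4 lists was 4 without DMSO replicate 1, 1 without DMSO replicate 2, 4 and 3 without replicate 1 or 2 of 0.2 μM, and 4 without the 0.34 μM library. H2AX passed in each of these 5 fits.

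**Figure D4:**
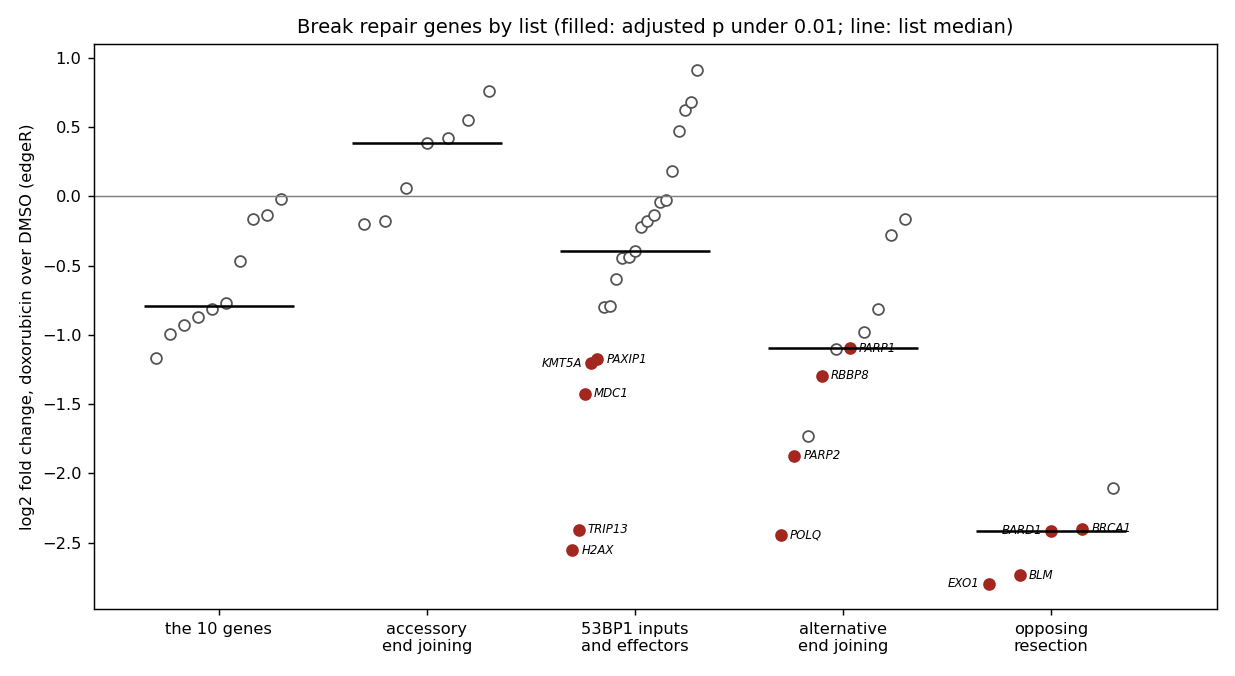
Log2 fold change, doxorubicin over DMSO, of each gene tested in the 10 end joining and 53BP1 genes and in 4 further lists. Filled symbols with names had an adjusted p under 0.01 in edgeR, and lines are list medians. The medians run from 0.38 for the accessory factors to -2.41 for the resection genes, with the 10 genes at -0.79 and no filled symbol among them.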

How the data were processed

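RNA-seq libraries of poly-A RNA from RPE1 cells were analysed from the authors' deposited raw counts per gene. The authors used STAR to map paired-end reads to hg38 and featureCounts (Rsubread) with the annotation from iGenomes to count them per gene. Neither tool versions nor the settings for strand and multi-mapped reads are stated. A table of the authors' DESeq2 comparison (means, fold changes, statistics and p-values) was not used. The treatment text of the labels gives other concentrations than the sample titles, and those of the titles were taken.

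The main test was the quasi-likelihood test of edgeR 4.0.16 (R 4.3.3) with TMM. Its filter (count at least 10, total at least 15) left 14187 genes out of 26485 to test. The study used DESeq2 (here 1.42.0), which was run as an alternative, as was limma voom 3.58.1. P-values were adjusted by Benjamini-Hochberg over all genes tested. Standard errors are the absolute log2 fold change over the square root of F. Library pairs of 1 condition differed by 117 and 75.3 in chi-square per degree of freedom, so they were not copies and all were counted as separate. Such a difference cannot show that the libraries came from separate cultures. Replicate 1 of 0.2 μM and the 0.34 μM library differed by less (9.01), though also beyond counting noise. The SDs and p-values of the joined doxorubicin group rest in part on this close pair. The code was tested on simulated data. The 10 genes, the lists (with older symbols matched) and the tests were chosen with earlier results of these data known. Named are the 10 genes, other list genes past the threshold and fixed examples. POLL, SHLD3 and TEN1 are named beyond that rule, after their values were seen. Gene positions and promoters are from RefSeq on GRCh38.p14. GENCODE gave lengths only, since its copy is on GRCh37.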

Additional observations from a re-analysis of the deposited data

How the results depend on the processing

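The direction of the median of the 10 genes held in all alternatives run, and the number of calls did not. For the 10 genes, 0 were called in the main test, with limma voom, with RLE or upper quartile normalization, in thinned counts, for either dose alone and with any library left out (range 0 to 0). DESeq2 called 6, a threshold of 0.05 gave 6, and testing without the filter on low counts gave 1 (RIF1). For the other pathway genes, where 13 were called, DESeq2 gave 21, the threshold of 0.05 gave 21, 0.2 μM alone 4 and 0.34 μM alone 0, and leaving out a library gave 1 to 4. For all genes, where 571 were called, DESeq2 gave 2073, no filter 1020, the threshold of 0.05 1927, 0.2 μM alone 171 and 0.34 μM alone 89, and leaving out a library gave 49 to 215. The fits with a library left out hold fewer libraries, and the comparisons of 1 dose contrast fewer libraries in a fit of all 5. The cause of the other differences was not tested.

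The median log2 fold change of the 10 genes (-0.793) ranged from -0.862 to -0.556 with a library left out, the latter without DMSO replicate 2. The fold change of LIG4, near 0, turned to 0.0237 with upper quartile normalization, 0.0238 in thinned counts, 0.05 for 0.2 μM alone, 0.04 without DMSO replicate 1 and 0.0543 without the 0.34 μM library, in a range of -0.105 to 0.0543 with a library left out. No other of the 10 genes changed sign. The titles call the second DMSO and the second 0.2 μM library rep2, and do not say that a number marks a shared culture. Across genes, the difference of replicates 1 and 2 in DMSO correlated with that at 0.2 μM (Pearson's r 0.528, a description over 14187 genes that share libraries). With the replicate number as a block and without the 0.34 μM library, 1 of the 10 genes (RIF1, adjusted p = 0.00997 in edgeR), 16 other pathway genes and 1249 of all genes were called, and LIG4 stood at 0.0549. With 2 control libraries, a call near the threshold depends on how alike they are.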

Other observations

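For the 2 genes with the largest changes, the genes most like them over the 5 libraries were sought by the root mean square difference of centred log2 CPM. For MAD2L2 these were RASSF1 (0.0304), a RAS effector and tumor suppressor, CDCA4 (0.049), a cell cycle gene, and IMMP1L (0.0583), a mitochondrial peptidase subunit. Their log2 fold changes were -1.12, -1.15 and -1.14. For DCLRE1C they were ZFP69B (0.0225), a zinc finger gene, CACNA2D3 (0.0261), a calcium channel subunit, and SRRT (0.0409), which acts in RNA processing, with log2 fold changes of -0.99, -1.12 and -0.98. The likeness was computed over 14187 genes and is a description only.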
